A study of Homo sapiens with 6 samples.

Results

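The genes described here encode negative feedback regulators of the mitogen-activated protein kinase (MAPK) pathways. They are 5 dual-specificity phosphatases (DUSP1, DUSP4, DUSP5, DUSP6 and DUSP10) and 5 Sprouty and SPRED proteins (SPRY1, SPRY2, SPRY4, SPRED1 and SPRED2). They were chosen by name, with earlier results of these data known. All 10 are among the 33451 genes of the deposited table of counts. The mRNA came from MDA-MB-453, an established line of human breast carcinoma cells. In the 25(OH)D group, the cells grew for 5 days with 100 nM 25(OH)D, the circulating form of vitamin D. In the control group they grew for 5 days with alcohol as the solvent, and each group has 3 libraries. The comparison asks how the transcripts of these genes changed in culture with 25(OH)D. All cells are of a single line, so the groups hold no variation between tumours.

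In the MAPK pathways, growth factor receptors and stress signals start chains of kinases that end in ERK, JNK or p38. The dual-specificity phosphatases end the signal by removing phosphate from both activating sites of these kinases. Sprouty and SPRED proteins act upstream, between the receptor and RAF, and many of these genes are transcribed in response to the kinases they restrain.

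The libraries held between 33268860 and 40928176 counted reads. At this depth 3 counts, set here as a floor for detection, equal between 0.072 and 0.092 CPM (counts scaled to a common library size with TMM factors). Which genes were tested was set by a separate low-count filter with a minimum count of 10. The first principal component held 64.8% of the variance and separated the groups. Mitochondrial genes took 7.85% to 7.99% of the control counts and 8.89% to 9.24% of the 25(OH)D counts, and every call among the 10 genes was the same without them. Of 6 markers of the line, among them ERBB2, KRT8 and FOXA1, 5 were above 100 CPM in every library. FOXA1 was the exception, with 77.4, 87.8 and 88.3 CPM in 25(OH)D. By the test given below, FOXA1 and GATA3 fell (log2 fold change -0.46 and -0.80). ERBB2, KRT8 and KRT18 rose (0.22, 0.14 and 0.10). The 5 markers that should be low, among them ESR1, KRT5 and VIM, were all under 1 CPM. Of 5 markers of leukocytes, fibroblasts and endothelium, 4 were under 1 CPM in every library and COL1A1 reached 38.5 CPM. Their sum was 36.6 to 38.9 CPM in control and 32.2 to 34.6 CPM in 25(OH)D, and its part in the results was not tested.

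Of the 10 genes, 3 rose (DUSP5, DUSP10 and SPRED2), 4 fell (DUSP4, DUSP6, SPRY1 and SPRED1) and 3 did not pass the test (DUSP1, SPRY2 and SPRY4). A gene is said to rise or fall where the p-value of edgeR's quasi-likelihood test, adjusted by the Benjamini-Hochberg method over the 18183 genes tested, was under 0.05. Over all genes tested, 33.8% passed, with 17.3% higher and 16.5% lower. In 8 of the 10 genes no library of a group lay within the range of the other, against 45.7% of all genes tested (22.8% higher and 22.9% lower). At an absolute log2 fold change over 1 with an unadjusted p under 0.05, DUSP10 was higher and DUSP4 and DUSP6 were lower. These limits held for 6.65% of all genes tested, 4.02% higher and 2.63% lower. The 10 genes were chosen with earlier results known, so shares above those of all genes are no test of them. The median log2 fold change of the 10 genes was -0.08, beside -0.01 for all genes tested. In bulk RNA, fewer cells with a transcript and less of it in each cell cannot be told apart. The p-values measure the spread between these libraries, which the study calls biological replicates without saying whether they were separate cultures.

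**Figure D1:**
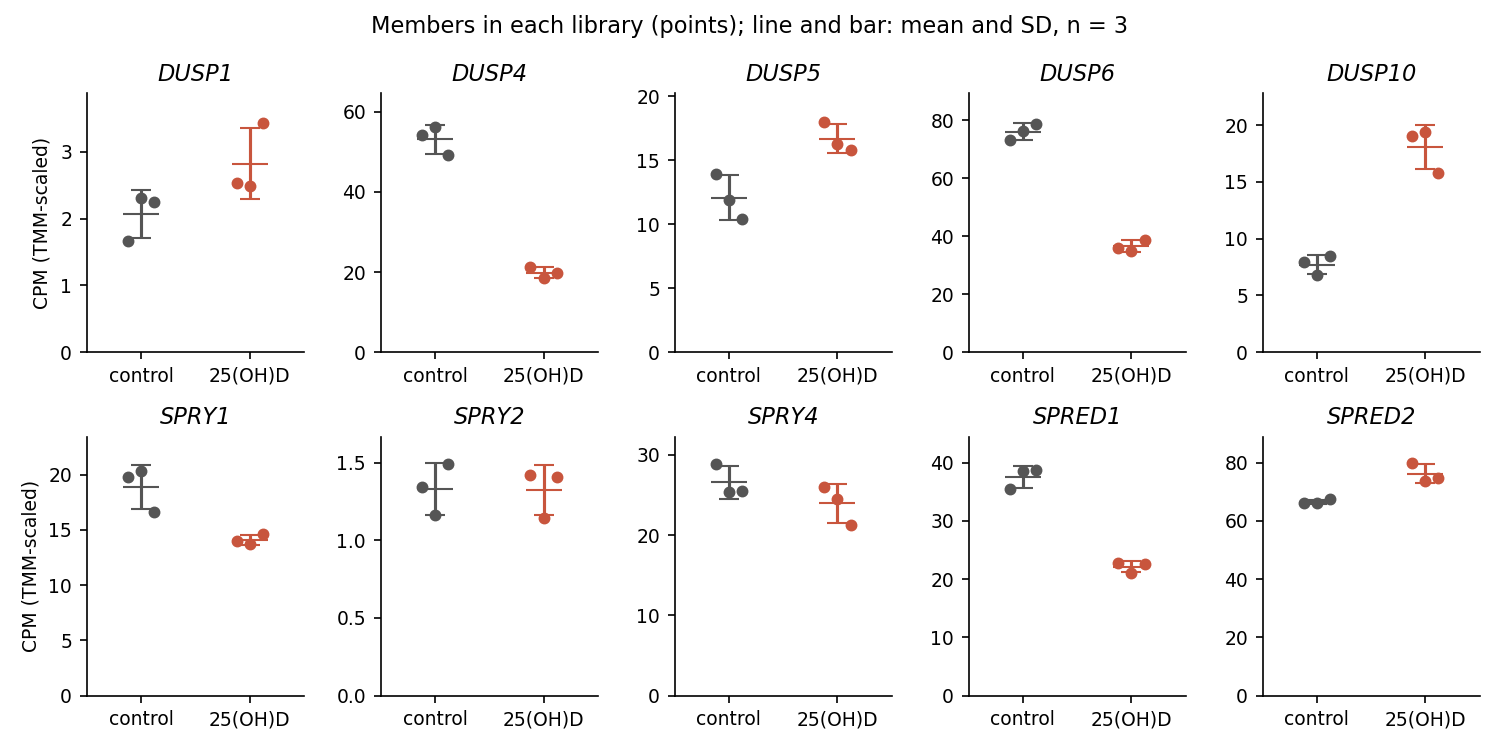
Level of each gene (CPM, linear axes from 0) in the 3 control and 3 25(OH)D libraries, with the mean and SD of each group. The groups overlap for SPRY2 and SPRY4 and are apart for the other 8 genes, with DUSP4 and DUSP6 falling and DUSP10 rising the most on the log2 scale.

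Among the phosphatases that act on ERK, DUSP6 and DUSP4 fell and DUSP5 rose. DUSP6 encodes the cytoplasmic phosphatase specific for ERK (chromosome 12, 89347232 to 89353271, minus strand of GRCh38). It had 73.2, 76.2 and 78.9 CPM in the control libraries and 35.9, 35.0 and 38.8 CPM in the 25(OH)D libraries. Every 25(OH)D library was far below every control library. The means were 76.1 ± 2.88 and 36.6 ± 1.95 CPM (SD, n = 3 each), and the log2 fold change was -1.06 (SE 0.057, adjusted p = 3.27e-09).

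DUSP6 shares 1875 of its 4632 exon bases (40.5%) with AC024909.2, an antisense gene on the plus strand (chromosome 12, 89351015 to 89353271, 2257 exon bases). It was matched by its positions to the name in GENCODE 29. The library kit marks strand, but the counting is not stated to use it. For genes lying wholly inside the exons of another gene, the read density relative to that gene had a median of 0.594 for 332 pairs on opposite strands and 0.716 for 144 pairs on the same strand. Reads of DUSP6 and of AC024909.2 therefore cannot be told apart. AC024909.2 had 2550, 2373 and 2436 counts in control and 1075, 1137 and 1107 in 25(OH)D, a log2 fold change of -1.02 (SE 0.0633, adjusted p = 1.64e-08). The counts of DUSP6 itself were 3049, 2886 and 2908 in control and 1262, 1348 and 1264 in 25(OH)D. With the counts of AC024909.2 subtracted, DUSP6 kept 499, 513 and 472 counts in control and 187, 211 and 157 in 25(OH)D. The fall was then -1.29 on the log2 scale (SE 0.104, adjusted p = 2.55e-07). Only 1875 of the 2257 exon bases of AC024909.2 are shared. Reads of its other bases were subtracted too, and reads of the shared bases that came from DUSP6 may have been. The counts left to DUSP6 may thus be too low. None of the other 9 genes shares exon bases with another gene.

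DUSP4 encodes an inducible nuclear phosphatase of ERK and other MAPKs (chromosome 8, 29333064 to 29350668, minus strand). It had 54.1, 56.2 and 49.1 CPM in control and 21.2, 18.6 and 19.7 CPM in 25(OH)D. The lowest control library was above every 25(OH)D library by a wide margin. Its means were 53.1 ± 3.65 in control and 19.8 ± 1.32 in 25(OH)D (CPM, SD, n = 3 each). On the log2 scale this was the largest fall of the 10 genes as counted, with a log2 fold change of -1.42 (SE 0.0715, adjusted p = 1.52e-09). The level in 25(OH)D was 0.373 of that in control.

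DUSP5, a nuclear phosphatase specific for ERK, moved the other way (chromosome 10, 110497838 to 110511544, plus strand). It had 13.9, 11.9 and 10.4 CPM in control and 18.0, 16.3 and 15.8 CPM in 25(OH)D. The groups did not overlap, although the highest control library was close to the lowest 25(OH)D library. The means were 12.1 ± 1.73 and 16.7 ± 1.14 CPM (SD, n = 3 each), and the log2 fold change was 0.46 (SE 0.104, adjusted p = 0.00296).

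Of the phosphatases that act on the stress kinases JNK and p38, DUSP10 rose and DUSP1 did not pass the test. DUSP10, whose product prefers these kinases to ERK (chromosome 1, 221701424 to 221742176, minus strand), had 7.92, 6.76 and 8.47 CPM in control and 19.0, 19.4 and 15.8 CPM in 25(OH)D. All 25(OH)D libraries were well above all control libraries. The means were 7.72 ± 0.871 and 18.0 ± 1.96 CPM (SD, n = 3 each), and the log2 fold change was 1.23 (SE 0.108, adjusted p = 6.67e-07), a 2.34-fold rise.

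DUSP1, an immediate-early gene whose product acts on p38, JNK and ERK, was scarce (chromosome 5, 172768090 to 172771195, minus strand). It had 1.66, 2.30 and 2.25 CPM in control and 2.53, 2.49 and 3.43 CPM in 25(OH)D. The groups did not overlap, but the spread within each was large beside the gap. The log2 fold change was 0.45 (SE 0.208, adjusted p = 0.119), with a 95% interval from -0.00104 to 0.8925. A rise of up to 1.86-fold therefore lies within the error.

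The promoters of DUSP10, with the largest rise, and DUSP1, whose window held the most kinds of motif match, are given here from RefSeq (GRCh38.p14, minus strand, 5′ to 3′). A window of 250 bases before to 50 bases after a start site was found for 8 of the 10 genes (13 windows), and the bases printed are those of the window that lie before the annotated exons. Capitals mark matches, on either strand, to TGACGTCA (the cAMP response element), TGACG (its shorter core), CACGTG (an E-box) and CCAAT.
DUSP10, chr1:221742177-221742339: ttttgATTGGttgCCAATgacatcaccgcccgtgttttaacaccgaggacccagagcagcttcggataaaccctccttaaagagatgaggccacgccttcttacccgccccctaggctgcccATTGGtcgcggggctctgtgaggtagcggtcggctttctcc
DUSP1, chr5:172771196-172771445: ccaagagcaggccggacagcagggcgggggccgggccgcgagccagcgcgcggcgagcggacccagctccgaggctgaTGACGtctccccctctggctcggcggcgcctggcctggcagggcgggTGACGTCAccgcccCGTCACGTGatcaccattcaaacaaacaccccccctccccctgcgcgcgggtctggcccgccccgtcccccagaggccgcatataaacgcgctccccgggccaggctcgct
The window of DUSP10 shown in part here held 4 CCAAT matches, 3 of them in the bases shown, and its second window held 0. Of 35116 RefSeq windows, 0.991% held 4 or more. CCAAT itself was in 34.6% of the windows, and also in a window of DUSP6, which fell, and of SPRED2, which rose. The DUSP1 window held TGACGTCA at -125 to -118 from the start site, which 1.85% of the windows held. It also held 4 matches to TGACG, 2 of which lie inside TGACGTCA and 1 of which overlaps the E-box at -108 to -103. TGACG was in 24.6% and CACGTG in 7.26% of the windows. Matches to TGACG were also found in the second window of DUSP10 and in SPRY2, SPRY4 and SPRED2. AP-1 motifs (TGANTCA, in 7.71% of the windows) were found in SPRED2 and the ETS core (CCGGAA, in 17.2%) in SPRY1 and SPRY2. A direct repeat of the kind bound by the vitamin D receptor, named DR3, was in none of the 13 windows and in 0.074% of all windows. A match describes the letters of the window and does not show a bound site.

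Among the Sprouty genes, whose products restrain RAS-ERK signalling below receptor tyrosine kinases, SPRY1 fell, while SPRY2 and SPRY4 did not pass the test. SPRY1 (chromosome 4, 123396795 to 123403760, plus strand) had 19.8, 20.3 and 16.6 CPM in control and 14.0, 13.7 and 14.6 CPM in 25(OH)D. The 25(OH)D libraries lay close together and below all controls. The means were 18.9 ± 1.99 and 14.1 ± 0.442 CPM (SD, n = 3 each), and the log2 fold change was -0.43 (SE 0.0882, adjusted p = 0.00172).

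SPRY4 (chromosome 5, 142310427 to 142326455, minus strand) had 28.9, 25.3 and 25.5 CPM in control and 26.0, 24.5 and 21.3 CPM in 25(OH)D. The groups overlapped, and the log2 fold change was -0.15 (SE 0.0839, adjusted p = 0.194, 95% interval -0.3305 to 0.03018). SPRY2 (chromosome 13, 80335976 to 80340951, minus strand) was the scarcest of the 10 genes, with 1.34, 1.16 and 1.49 CPM in control and 1.42, 1.14 and 1.41 CPM in 25(OH)D. Its groups overlapped fully. The log2 fold change was -0.011 (SE 0.245, adjusted p = 0.978), and the 95% interval on the fold ran from 0.689 to 1.43, so a change of up to that size in either direction lies within the error.

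SPRED1 and SPRED2 encode Sprouty-related proteins that bring the RAS-inactivating protein neurofibromin to the membrane, and they changed in opposite directions. SPRED1 (chromosome 15, 38252326 to 38357249, plus strand) had 35.4, 38.6 and 38.7 CPM in control and 22.7, 21.1 and 22.6 CPM in 25(OH)D. All 25(OH)D libraries were far below the controls. The means were 37.6 ± 1.89 and 22.1 ± 0.884 CPM (SD, n = 3 each), and the log2 fold change was -0.76 (SE 0.0659, adjusted p = 5.39e-07).

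SPRED2 (chromosome 2, 65310851 to 65432637, minus strand) had 66.1, 66.2 and 67.4 CPM in control and 80.0, 73.8 and 74.8 CPM in 25(OH)D. The control libraries were nearly equal and all below the 25(OH)D libraries. The rise was small, the means being 66.6 ± 0.707 and 76.2 ± 3.33 CPM (SD, n = 3 each), and the log2 fold change was 0.20 (SE 0.0493, adjusted p = 0.00681).

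**Figure D2:**
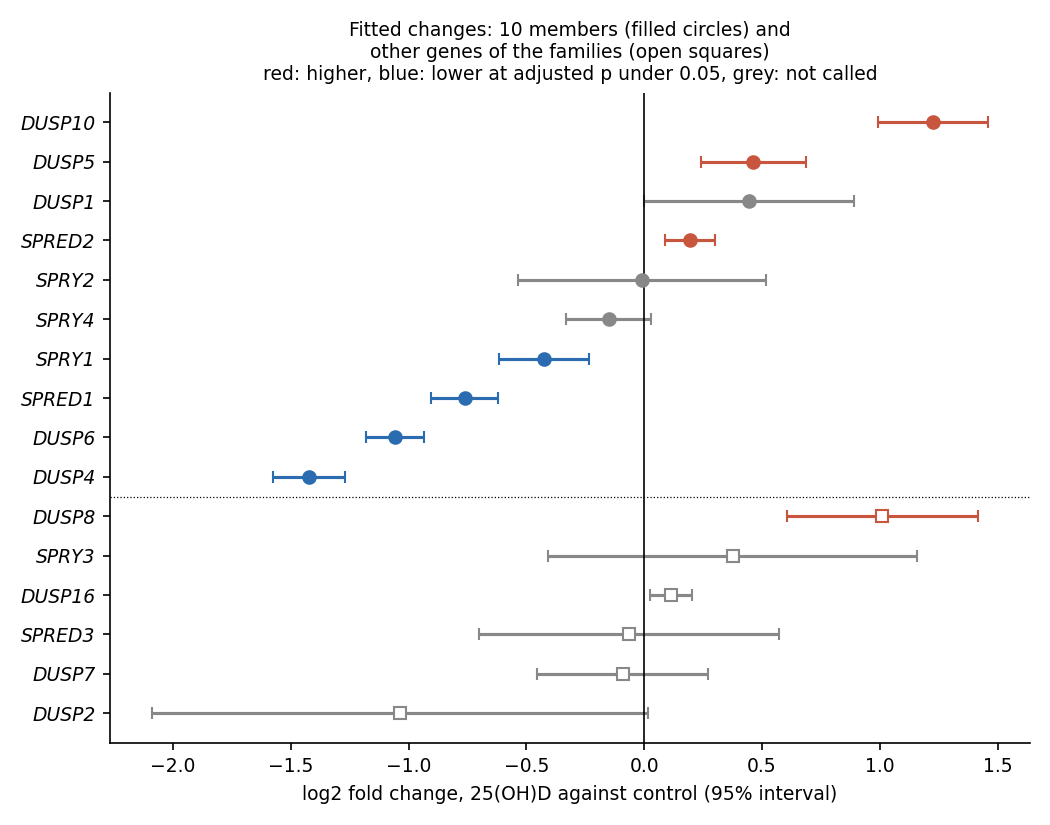
Log2 fold change of 25(OH)D against control with its 95% interval for the 10 genes (filled circles) and for the 6 other tested genes of the same families (open squares). DUSP10 at 1.23 and DUSP4 at -1.42 are the ends of the range of the 10 genes, and the intervals of DUSP1, SPRY2 and SPRY4 include 0.

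Levels of different genes were compared per length, as RPKM (reads scaled to gene length and library total). In the control libraries DUSP6 was the most abundant as counted (16.7 ± 0.566 RPKM), followed by SPRED2 (13.1 ± 0.0775) and DUSP4 (7.43 ± 0.543). SPRY1, DUSP5, SPRED1 and SPRY4 followed between 4.85 and 4.55 RPKM, and neighbours in that order overlapped. DUSP10 (2.69), DUSP1 (1.04) and SPRY2 (0.445) were the lowest and were apart from each other. The place of DUSP6 rests on reads that may belong to AC024909.2. With those counts subtracted, its control level was 2.80 ± 0.173 RPKM over all its exon bases, rank 7 of 10. Divided by the 2757 exon bases it does not share, it was 4.71 ± 0.291 RPKM, rank 4 of 10 (SD, n = 3 for both). Reads of AC024909.2 outside the overlap were subtracted as well. Reads in the overlap that came from DUSP6 may have been subtracted with them, so both levels may be too low. The first level also keeps the shared bases in its length. The ranks, sums and shares after subtraction rest on such levels.

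In the 25(OH)D libraries SPRED2 led with 14.6 ± 0.59 RPKM, and DUSP6 as counted was next with 7.77 ± 0.377 RPKM. With the AC024909.2 counts subtracted DUSP6 had 1.11 ± 0.08 RPKM over all its exon bases (rank 9 of 10) or 1.86 ± 0.134 RPKM over the unshared ones (rank 8 of 10). DUSP5 (6.29) and DUSP10 (6.10) overlapped each other, as did SPRY4 (3.97) and SPRY1 (3.50), and DUSP4 (2.69) and SPRED1 (2.64). DUSP1 (1.37) and SPRY2 (0.429) were again lowest.

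The makeup of the phosphatase transcripts differed between the groups. As counted, the summed level of the 5 phosphatases was 32.7, 32.8 and 32.1 RPKM in control and 24.8, 24.1 and 23.8 RPKM in 25(OH)D, with no overlap. DUSP6 held 51.3% ± 2.18 of that sum in control and 32.1% ± 2.1 in 25(OH)D, and DUSP4 held 22.8% ± 1.42 and 11.1% ± 0.496 (SD, n = 3 each). The share of DUSP10 was 8.27% ± 0.981 in control and 25.2% ± 2.58 in 25(OH)D, and that of DUSP5 was 14.4% ± 2.01 and 26.0% ± 1.14. The level of DUSP6 relative to DUSP10 was 5.81, 7.09 and 5.86 in control and 1.19, 1.14 and 1.54 in 25(OH)D. These shares are not changed by the scaling of the libraries, and they are given without a test. The sums, here and below, do depend on it. They are scaled by library total alone, without the TMM factors of 1.01 to 1.018 in control and 0.9802 to 0.9925 in 25(OH)D.

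The sum and the shares depended on how the reads in the overlap of DUSP6 and AC024909.2 were treated. With the AC024909.2 counts subtracted and DUSP6 taken over all its exon bases, the sums were 19.2, 19.0 and 17.7 RPKM in control and 18.4, 17.7 and 16.6 RPKM in 25(OH)D, and the groups overlapped. Over the unshared exon bases they were 21.0, 21.1 and 19.6 RPKM in control and 19.1, 18.5 and 17.3 RPKM in 25(OH)D, without overlap. The drop in the sum was thus smaller in both cases. Both take every count of AC024909.2 from DUSP6, and which treatment is nearer the true level was not tested. The share of DUSP6 was then 15.0% in control and 6.3% in 25(OH)D over all exon bases, or 22.9% and 10.2% over the unshared ones. The other shares were larger, with DUSP4 at 39.8% and 15.3%, DUSP5 at 25.1% and 35.8% and DUSP10 at 14.5% and 34.7% over all exon bases. In both cases the shares of DUSP6 and DUSP4 were lower, and those of DUSP5 and DUSP10 higher, in every 25(OH)D library than in every control library. The ratio of DUSP6 to DUSP10 was 1.05 ± 0.178 in control and 0.182 ± 0.00843 in 25(OH)D over all exon bases (SD, n = 3 each).

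The Sprouty and SPRED transcripts together were at 27.6 ± 0.493 RPKM in control and 25.1 ± 0.916 RPKM in 25(OH)D (SD, n = 3 each). SPRED2 held 47.6% ± 1.14 of them in control and 58.0% ± 0.326 in 25(OH)D, while SPRED1 held 16.8% ± 1.01 and 10.5% ± 0.37. The ratio of SPRED2 to SPRED1 was 2.99, 2.75 and 2.79 in control and 5.65, 5.60 and 5.31 in 25(OH)D. The ratio of SPRY4 to SPRY1 overlapped between the groups.

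**Figure D3:**
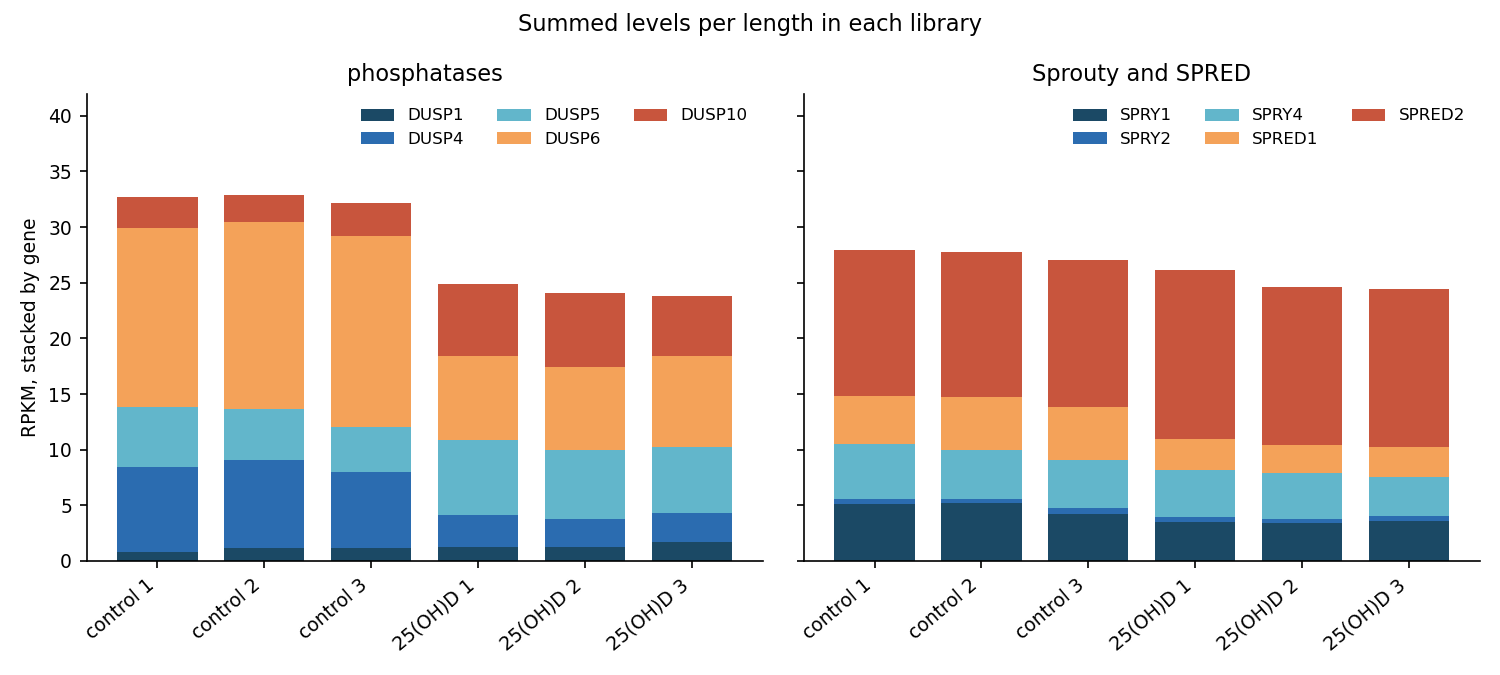
Summed level (RPKM, linear axis from 0) of the 5 phosphatases and of the 5 Sprouty and SPRED genes in each library, stacked by gene. The phosphatase bars drop from 32.1 to 32.8 RPKM in control to 23.8 to 24.8 RPKM in 25(OH)D, with smaller segments of DUSP6 and DUSP4 and larger ones of DUSP10 and DUSP5. The segment of DUSP6 includes the reads shared with AC024909.2, and with its counts subtracted the sums are 17.7 to 19.2 RPKM and 16.6 to 18.4 RPKM, which overlap, over all exon bases.

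Of the 7 other genes of these families, 6 were tested and DUSP8 alone passed. DUSP8, a phosphatase of JNK and p38, had 1.44, 1.48 and 1.36 CPM in control and 2.76, 3.01 and 2.85 CPM in 25(OH)D. The groups were clearly apart, with a log2 fold change of 1.01 (SE 0.188, adjusted p = 7.5e-04). DUSP16, which acts on JNK, had 114, 118 and 116 CPM in control and 126, 122 and 128 CPM in 25(OH)D. Its groups did not overlap, but its log2 fold change of 0.11 (SE 0.0415) had an adjusted p of 0.0505. It passed at 0.0321 without the mitochondrial genes, at 0.042 with the size factors of DESeq2 and at 0.0412 with its Wald test. In the other 13 of 16 alternatives to the main fit it did not pass, at adjusted p up to 0.229.

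The remaining genes of the families were scarce, and their groups overlapped. DUSP2, an inducible nuclear phosphatase, had 20, 22 and 26 counts in control and 4, 10 and 16 in 25(OH)D, a log2 fold change of -1.04 (adjusted p = 0.124). Without the third 25(OH)D library it was -1.61 and passed (adjusted p = 0.0437), but it did not pass in the other 15 of 16 alternatives. DUSP7, a cytoplasmic phosphatase of ERK, had a log2 fold change of -0.09 (adjusted p = 0.726), SPRY3 of 0.38 (0.473) and SPRED3 of -0.065 (0.893). DUSP9, another cytoplasmic phosphatase, had 6, 0 and 8 counts in control and 2, 0 and 0 in 25(OH)D and was not tested.

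The MAPK pathway around these genes changed in both directions. Over 6 lists with 92 genes, 84 were tested, 18 rose and 18 fell, with a median log2 fold change of -0.02. The 36 genes are 42.9% of those tested, beside 33.8% of all genes tested. The lists were also chosen with earlier results of these data known, so a larger share is no test of a list. With library sizes alone, 15 rose and 27 fell, and with upper-quartile scaling 15 rose and 26 fell. The split of all genes tested moved the same way, from 3138 higher and 3004 lower to 2689 and 3667 with library sizes alone and to 2705 and 3613 with upper-quartile scaling. Of the genes named from these lists and families, 14 of 38 share exon bases with another gene, and IER3 shares the largest part of its own (26.5%).

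Of 11 receptor genes tested, 3 rose and 2 fell (45.5%, beside 33.8% of all genes tested, which also stands beside the shares of the lists that follow). RET, a receptor tyrosine kinase for neurotrophic factors, had 3.77, 3.94 and 3.61 CPM in control and 39.3, 39.2 and 40.6 CPM in 25(OH)D, a log2 fold change of 3.39 (SE 0.0781, adjusted p = 3.65e-13). ERBB3 and ERBB2, which signal as a pair, rose by 0.35 and 0.22 on the log2 scale (adjusted p = 1.73e-05 and 1.89e-04). IGF1R, the receptor of insulin-like growth factor, fell by 0.48 on the log2 scale (adjusted p = 2.71e-04). ERBB4 fell from 52, 17 and 47 counts to 4, 2 and 4 (adjusted p = 3.25e-04), and it did not pass on RPKM with 1 added. FGFR4, named here after its values were seen as an abundant receptor of the line, had 745 ± 25.3 CPM in control and 754 ± 44.1 CPM in 25(OH)D (SD, n = 3 each, log2 fold change 0.018, adjusted p = 0.785, 95% interval -0.07492 to 0.1118).

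Of the 19 genes from the adaptors to ERK itself, 3 rose and 5 fell (42.1%), with a median log2 fold change of -0.04. The docking protein GAB1 fell by 0.51 on the log2 scale (adjusted p = 6.72e-05) and its relative GAB2 rose by 0.64 (adjusted p = 1.49e-04). MAP2K1, the kinase that activates ERK, rose by 0.46 (adjusted p = 7.25e-05). The adaptor GRB2 fell by 0.21 on the log2 scale (adjusted p = 3.82e-04) and HRAS fell by 0.26 (adjusted p = 0.00165). PTPN11, a phosphatase that promotes RAS signalling, was at the threshold (0.10, adjusted p = 0.0492) and lost its call in 11 of 16 alternatives. In 11 of the 16 alternatives, all 6 that leave out a library among them, 3 genes of this list fell in place of 5.

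Among 16 other inhibitors of the pathway, 3 rose and 3 fell (37.5%). LRIG1, which lowers the level of ERBB receptors, rose by 0.42 on the log2 scale (adjusted p = 2.0e-04), PEA15, which holds ERK in the cytoplasm, by 0.30 (adjusted p = 4.19e-04) and RASAL2, which inactivates RAS, by 0.18 (adjusted p = 0.0283). RASAL2 lost its call in 6 of 16 alternatives, at adjusted p between 0.0825 and 0.262. RASAL1, of the same kind, fell by 1.21 on the log2 scale (adjusted p = 0.00223) and ERRFI1, an inhibitor of EGFR and ERBB2, fell by 0.35 (adjusted p = 0.00118). IL17RD, a membrane inhibitor of FGF signalling also known as SEF, fell from 50, 34 and 16 counts to 2, 12 and 0 (adjusted p = 0.00793), and did not pass on RPKM with 1 added. With library sizes alone 7 of these inhibitors fell, and with upper-quartile scaling 6.

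Transcripts known to respond to ERK, 14 of 17 tested, gave 4 that rose and 5 that fell (64.3%), with a median log2 fold change of -0.28. EGR1, an immediate-early transcription factor, had 8.52, 7.45 and 6.30 CPM in control and 2.33, 2.11 and 2.21 CPM in 25(OH)D, a log2 fold change of -1.75 (SE 0.152, adjusted p = 5.88e-07). FOS, another immediate-early gene, moved the other way, from 36, 26 and 12 counts to 78, 90 and 84 (log2 fold change 1.91, SE 0.3, adjusted p = 1.83e-04). In both genes the groups did not overlap. The ephrin receptor EPHA4 fell by 1.27 on the log2 scale (adjusted p = 1.14e-06), whereas EPHA2 rose by 0.82 (adjusted p = 2.28e-04). CCND1, the cyclin of the G1 phase, rose by 0.35 (adjusted p = 9.64e-05), and the early response gene IER3 fell by 0.38 on the log2 scale (adjusted p = 0.00135). ETV5, an ETS factor named here after its values were seen, fell by 0.69 on the log2 scale (adjusted p = 0.00871).

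In the JNK and p38 cascades, 4 of 18 tested genes rose and 3 fell (38.9%). MAP3K1, which starts the JNK chain, had 44.9, 41.7 and 44.7 CPM in control and 90.5, 85.4 and 98.0 CPM in 25(OH)D, a log2 fold change of 1.06 (SE 0.0592, adjusted p = 4.92e-09). MAPKAPK2, a kinase below p38, rose by 0.64 (adjusted p = 1.17e-07) and MAPK9, which encodes JNK2, by 0.25 (adjusted p = 8.38e-04). MAP3K5, a kinase activated by oxidative stress, fell by 0.62 on the log2 scale (adjusted p = 2.08e-05) and MAPKAPK3 fell by 0.35 (adjusted p = 0.00645). MAP2K7, which activates JNK, fell by 0.20 on the log2 scale (adjusted p = 0.0248) and lost its call without control library 1 or 2 and without 25(OH)D library 1 or 3, at -0.127 to -0.208. With library sizes alone or upper-quartile scaling, 5 genes of these cascades fell.

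**Figure D4:**
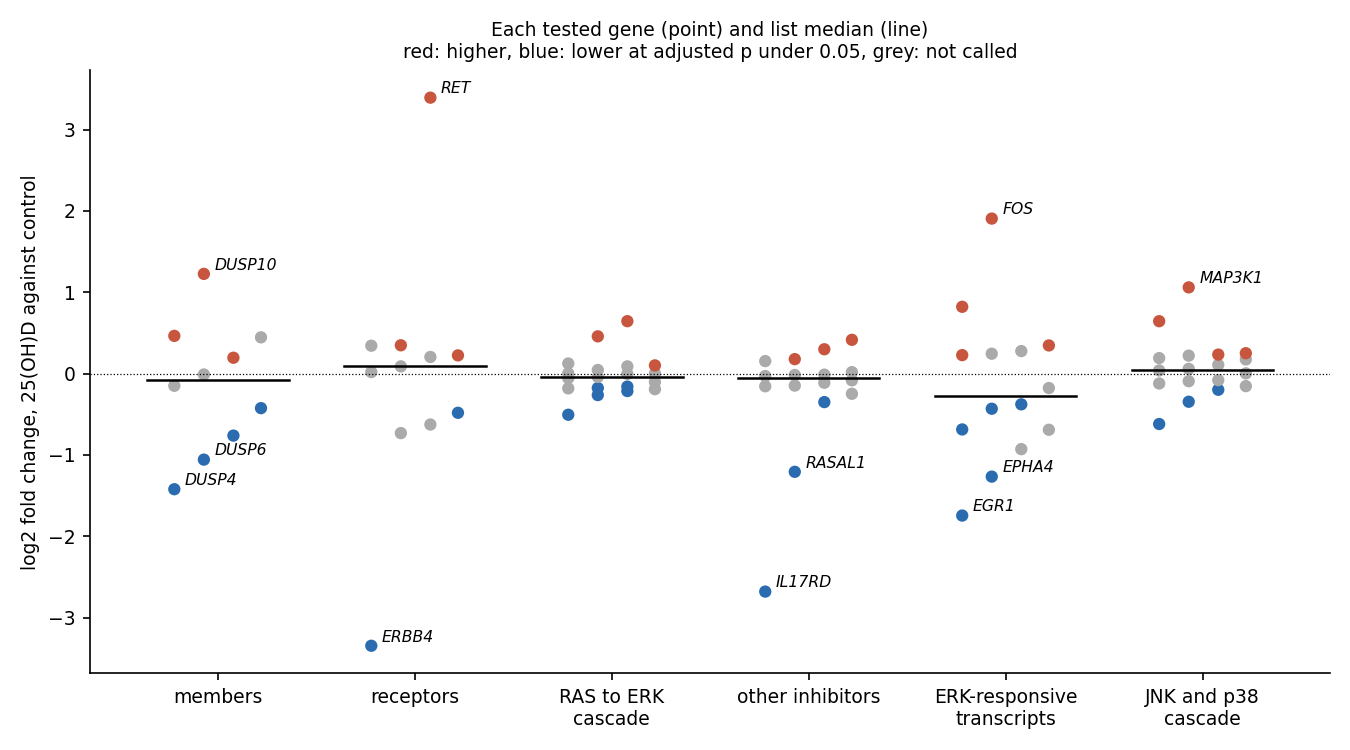
Log2 fold change of 25(OH)D against control for each tested gene of the 10 feedback genes and of 5 lists of the pathway, with the median of each list as a line. Called genes lie on both sides of 0 in every list, and RET at 3.39 and ERBB4 at -3.35 are farthest from 0.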

How the data were processed

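RNA was sequenced from 6 libraries of MDA-MB-453 cells, prepared with a stranded mRNA kit. The authors deposited counts of reads per gene, not normalized, and RPKM values, which equal each count divided by gene length and library total (largest relative difference 2.23e-13). The submitters' processing notes name Trimmomatic 0.36, featureCounts of Subread 1.5.1, edgeR 3.12.1 and GRCh38; the aligner and the annotation release are not given in the sources used here. Of the counts from 1 to 10, 68.5% were even, against 51.0% of those from 1001 to 2000, so part of the low counts came in steps of 2 reads. Replicates within a group differed by more than sampling noise (chi-square per gene 4.01 to 12.3).

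Differential expression was computed from the counts by edgeR 4.0.16 in R 4.3.3 (TMM, low-count filter with a minimum count of 10, quasi-likelihood test without covariates, Benjamini-Hochberg adjustment over 18183 genes, biological coefficient of variation 0.0788). SE values are the log2 fold change divided by the square root of the F statistic. The test was checked on simulated data with 200 changed genes. CPM values use library totals scaled by TMM factors. The lists were described by counts and medians, with no set test. The 10 genes and all lists were chosen with earlier results of these data known. The text names all 10 genes, the rest of their families and up to 3 genes per direction in each other list with the smallest p among those called, 46 in all, and 2 more (FGFR4 and ETV5) that were chosen after their values were seen. An exact permutation test of 3 against 3 libraries cannot go below 0.1 and was not used. Exon overlaps came from the positions in the table. No stretch of 100 bases of the 10 genes recurs in transcripts of other genes in GENCODE 29. Promoters were those of RefSeq (GRCh38.p14) outside chromosome 8. Alternatives were other scaling factors, DESeq2 1.42.0, limma 3.58.1 on log2 RPKM with 1 or 0.1 added, no filter, a replicate block, no mitochondrial genes and the omission of each library. The subtraction of the AC024909.2 counts, for DUSP6 and for the summed levels and shares, was added after seeing the data. Other steps used Python 3.11.15 with pandas 2.3.3, numpy 2.4.6 and matplotlib 3.10.9. The remaining arms of the study were not analysed here. A further gene of the marker list is not reported here.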

Additional observations from a re-analysis of the deposited data

How the results depend on the processing

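Of the 10 genes, the same 3 rose and the same 4 fell at an adjusted p under 0.05 under all 16 alternatives. Among the 16, here and above, the subtraction of the AC024909.2 counts altered the counts of DUSP6 alone. It could hardly change the calls of other genes. The log2 fold changes were between -1.47 and -1.19 for DUSP4, -1.29 and -1.01 for DUSP6, 0.943 and 1.32 for DUSP10, and -0.807 and -0.626 for SPRED1. SPRY2 changed sign without mitochondrial genes (0.00109) and ranged from -0.0939 to 0.0946 when each library was left out, a range within its error. FGFR4 changed sign with upper-quartile factors (-0.0236), library sizes alone (-0.0256) and log2 RPKM with 1 (-0.0265) or 0.1 (-0.0266) added, and ranged from -0.0164 to 0.0611 when each library was left out. Over the same omissions DUSP7 ranged from -0.16 to 0.0573 and SPRED3 from -0.27 to 0.17. At the limits on fold and unadjusted p, RPKM with 1 added gave 243 genes higher, 70 lower and 0 of the 10 genes higher, since the addition understates changes of low genes. RPKM with 0.1 added gave 317 lower and the absence of a filter 753 lower. With the counts antisense to DUSP6 subtracted, the summed phosphatase level was 18.7 in control and 17.6 RPKM in 25(OH)D over all exon bases of DUSP6, and 20.6 and 18.3 over the unshared ones, in place of 32.5 and 24.2. The share of DUSP6 was 15.0% and 6.3%, and 22.9% and 10.2%, in place of 51.3% and 32.1%. The median log2 fold change of all genes tested was -0.0113, and -0.0554 with library sizes alone.

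Deviations of same-numbered libraries correlated at -0.0721, -0.012 and -0.046, so no pairing by replicate number was seen. With 3 libraries per group this cannot tell how the cultures were set up, which the labels do not say. With the replicate block 3057 genes were higher and 2896 lower, and 3 of the 10 genes rose and 4 fell. DUSP9 had too few counts to be tested.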
